A study of Arabidopsis thaliana with 7 samples.

Results

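The ISWI remodelling complex genes of Arabidopsis thaliana described here are CHR11, CHR17, RLT1, RLT2, ARID5 and MBD9, 6 of the 27444 nuclear protein-coding genes of the RefSeq gene table. They were chosen by name, and 5 were found by symbol or synonym. ARID5 is not among the table's names, and its locus, AT3G43240, was taken from general knowledge of the gene, so the number of genes with a peak, the number of peaks and the share of bases covered are also given without it. A peak was assigned to a gene when its centre fell inside the gene or no more than 1000 bp beyond it. The values come from chromatin immunoprecipitation followed by sequencing (ChIP-seq), which locates DNA bound by a tagged protein.

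The series holds 7 samples of day 12 seedlings, namely 2 of ZF-DDR5, 2 of ZF-DDR4, 2 of Col-0 and another Col-0 sample marked g3, of which 1 peak list, listed under ZF-DDR5 replicate 1, was analysed here. ZF-DDR5 seedlings carry DDR5, a DDT-domain protein, fused to an engineered zinc finger, and Col-0 is the untransformed accession. Neither the promoter of the transgene nor the number of ZF-DDR5 lines is stated in the labels, and whole seedlings were sampled, so the cells that contribute to a peak are unknown. The list gives the chromosome, start and end of 9999 peaks, with no score, read count or depth. Neither a second ZF-DDR5 list nor a Col-0 list was analysed, so the values carry no replicate error, no group comparison was made, and whether Col-0 has the same peaks is unknown.

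ISWI proteins are ATPases that slide nucleosomes along DNA and set their spacing. They work with partner subunits, several of which hold a DDT domain, the part that contacts the ATPase. In Arabidopsis CHR11 and CHR17 are the ISWI ATPases, RLT1 and RLT2 are DDT-domain homeobox partners, ARID5 is a partner with an AT-rich interaction domain, and MBD9 has a methyl-CpG-binding domain and is also known from the SWR1 complex, which deposits the histone variant H2A.Z. Plants that lack both ATPases, or both RLT proteins, are known to flower early. A peak in any of these genes concerns the DNA of the gene and not the protein it encodes.

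Of the 6 genes, 5 had a peak, and MBD9 and RLT1 held most of the peaks. Over all protein-coding genes the same rule gave 36.5% with a peak (10006 of 27444, Wilson 95% interval 35.9% to 37.0%, for counting error only). That interval treats genes as independent, although a peak can be counted for neighbouring genes at once. The 6 genes had 12 peaks between them, of which 5 were at MBD9, 4 at RLT1 and 1 each at CHR11, RLT2 and ARID5, while CHR17 had 0. Without ARID5, 4 of 5 genes had a peak and there were 11 peaks. Peak centres lay in the gene body of the same 5 genes, against 26.9% of all protein-coding genes. The 6 genes are long, from 5117 bp for ARID5 to 9265 bp for MBD9, against a median of 2078 bp for protein-coding genes. Long genes held peaks more often, and among genes whose length was within 20% of each member's, the share with a peak lay between 53.8% (genes as long as ARID5) and 69.6% (genes as long as MBD9). By centres in the gene body alone, the share lay between 46.1% (genes as long as ARID5) and 65.0% (genes as long as MBD9). No test was made of 5 in 6 against these shares.

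**Figure D1:**
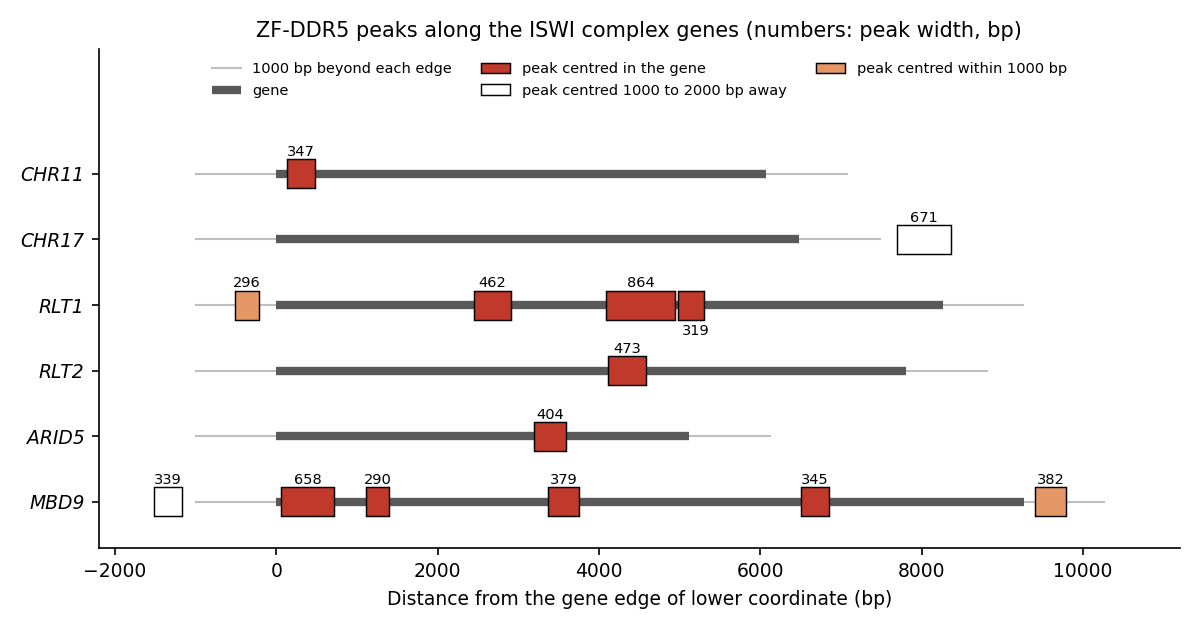
ZF-DDR5 peaks along the 6 genes, with the distance from the gene edge of lower coordinate on the horizontal axis (bp) and 1 gene per row; boxes are peaks drawn to scale, with their width in bp, and thin lines mark 1000 bp beyond each edge. MBD9 has 4 boxes in the gene and RLT1 has 3, CHR17 has none in the gene or within 1000 bp, and the white boxes at CHR17 (671 bp) and MBD9 (339 bp) lie further out and were not counted.

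The remodeller CHR11 (AT3G06400, chromosome 3, 6074 bp long) had a narrow peak close to an edge. It lay at chromosome 3, 1941037 to 1941383 (TAIR10) and was 347 bp wide, wider than 19.3% of the list. Its centre was 303 bp inside the edge of lower coordinate, or 4.99% of the way along the gene. The gene table gives no strand, so which edge holds the transcription start was not analysed here. The next peak after the gene was 26810 bp beyond the gene edge of higher coordinate, and the nearest one before it was 22311 bp beyond the edge of lower coordinate. Neither neighbouring gene, AT3G06390 or AT3G06410, had a peak centre. Of the 1374 other genes as long as CHR11, 59.3% had a peak.

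CHR17 (AT5G18620, chromosome 5, 6480 bp long), the close relative of CHR11, had no peak in the gene or within 1000 bp. The nearest peak was 671 bp wide (chromosome 5, 6203384 to 6204054). Its centre was 1551 bp beyond the CHR17 edge of higher coordinate, inside the neighbouring gene AT5G18630, which begins 367 bp after CHR17. On the other side the nearest peak (chromosome 5, 6180668 to 6181641) ended 14047 bp before CHR17. The gene thus sat in a stretch of 21742 bp without a peak, longer than 86.0% of the 9994 gaps between neighbouring peaks. The median gap was 6300.5 bp. A gap that holds a whole gene of 6480 bp has to be longer than that median, so the rank does not single out CHR17. Among other genes of its length, 45.7% overlapped no peak. Of the 1129 other genes as long as CHR17, 61.2% had a peak by the same rule. CHR11 and CHR17 encode closely related proteins, and how uniquely reads map to either gene was not assessed.

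RLT1 (AT1G28420, chromosome 1, 8260 bp long), which the gene table lists under the symbol HB-1, had 3 peaks in the gene and 1 beside it. The widest of the 4, and of all 12, measured 864 bp (chromosome 1, 9983560 to 9984423), wider than 85.0% of the list, with its centre 54.6% of the way along the gene from the edge of lower coordinate. A second peak of 319 bp (9984462 to 9984780) followed it after a gap of only 38 bp. In the whole list 17 of the 9994 gaps (0.170%) were that short. The remaining peak in the gene was 462 bp wide (9981922 to 9982383) and lay 32.4% along. All 3 were centred at least 2674 bp from either edge of RLT1, in the middle of the gene.

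The fourth RLT1 peak (chromosome 1, 9978967 to 9979262, 296 bp) lay 364 bp outside the edge of lower coordinate. It was centred in AT1G28410, a gene that overlaps RLT1 by 316 bp, so it cannot be assigned to RLT1 alone. Counted with it, RLT1 had 4 peaks, a number that 58 of all protein-coding genes (0.211%) and 11 of the 477 other genes of its length (2.31%) reached or exceeded. A peak was present at 67.5% of those 477 genes. Counted by the gene body alone, its 3 peaks were matched or exceeded in 26 of those 477 genes (5.45%).

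RLT2 (AT5G44180, chromosome 5, 7807 bp long), the relative of RLT1, had a single peak. It lay at chromosome 5, 17786540 to 17787012, was 473 bp wide, and was narrower than the list's median of 484 bp. Its centre was 55.7% of the way along from the edge of lower coordinate and 44.3% from the other edge, near the middle of the gene. The widest RLT1 peak was at 54.6% and 45.4%. Whether the pair of positions falls at matching parts of the coding sequence was not analysed here, since neither exons nor strand were at hand. Of the 588 other genes as long as RLT2, 67.9% had at least this 1 peak. The next protein-coding gene on the side of higher coordinate, GLK2, a transcription factor gene of chloroplast development, began 8027 bp away and had no peak centre.

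ARID5 (AT3G43240, chromosome 3, 5117 bp long) had a peak of 404 bp at chromosome 3, 15213022 to 15213425. Its centre was 1724 bp inside the edge of higher coordinate, 66.3% of the way along from the other edge. The gene before it, AT3G43230, overlaps ARID5 by 23 bp and had no peak centre, nor had AT3G43250 on the other side. Among the 2247 other genes as long as ARID5, 53.8% had a peak.

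MBD9 (AT3G01460, chromosome 3, 9265 bp long) had more peaks than any other of the 6 genes, with centres inside it from 4.16% to 72.1% of the way along from the edge of lower coordinate and none beyond. The first and widest, 658 bp, lay at chromosome 3, 173247 to 173904, with its centre 385 bp inside the edge of lower coordinate. The others in the gene were 290 bp (174300 to 174589), 379 bp (176558 to 176936) and 345 bp wide (179696 to 180040). Their centres were 13.5%, 38.4% and 72.1% of the way along, and 869 to 3121 bp lay between the centres of successive peaks. No peak in MBD9 was as wide as the 864 bp peak of RLT1, and the 290 bp peak was wider than only 1.59% of the list.

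The last MBD9 peak (chromosome 3, 182601 to 182982, 382 bp) lay 337 bp outside the edge of higher coordinate. Its centre was inside AT3G01470, the homeodomain gene ATHB1, which overlaps MBD9 by 59 bp, and it too cannot be assigned to MBD9 alone. On the other side AT3G01450, which ends 1144 bp before MBD9, had 2 peak centres, and the wider of those peaks measured 528 bp. Of all protein-coding genes, 17 (0.0619%) had 5 or more peaks by this rule, with a median length of 10436 bp. Among the 309 other genes as long as MBD9, 5 (1.62%) had 5 or more, and 7 (2.27%) had at least 4 in the gene body. Leaving out the peaks counted for the gene itself, the 100 kb centred on MBD9 held 10 peaks, against 3 around CHR11, 6 around ARID5, 7 around RLT2 and 8 around CHR17 and RLT1. Counted in the same way, the windows of all protein-coding genes held a median of 9 (quartiles 6 and 11), so only the CHR11 window lay outside the quartiles.

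**Figure D2:**
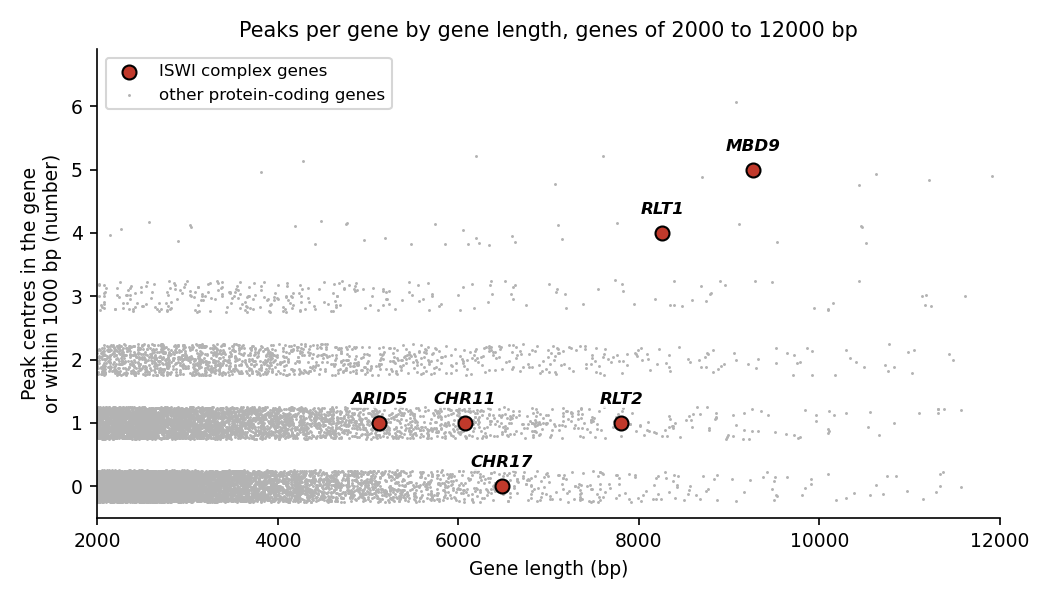
Number of peaks assigned to each gene (vertical axis) against gene length in bp (horizontal axis) for the 6 ISWI complex genes (red, named) and the other protein-coding genes of 2000 to 12000 bp (grey, spread vertically for display only). MBD9 at 5 peaks and RLT1 at 4 lie above nearly all genes of their length, while CHR11, RLT2 and ARID5 at 1 and CHR17 at 0 lie at the numbers most common among genes of their length.

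The genes also differed in how much of their length the peaks covered. Peaks covered 19.9% of RLT1 (1645 bp), 18.0% of MBD9 (1672 bp), 7.90% of ARID5, 6.06% of RLT2, 5.71% of CHR11 and 0% of CHR17. Genes of the same length were covered to between 7.03% (those as long as RLT1) and 7.38% (those as long as CHR11) on average. Of the genes of the same length, 92.5% were covered less than RLT1 and 90.6% less than MBD9. For CHR11, RLT2 and ARID5 that share was 53.2%, 55.8% and 63.1%, nearer the middle. Summed over the 6 genes, peaks covered 4541 of 43003 bp (10.6%, or 10.9% without ARID5), against 7.15% in the 1511 other genes of 5000 to 10000 bp. The number of peak centres per kb of gene was 0.233 for the 6 genes together and 0.120 for those 1511. RLT1 and MBD9 together held 7 of the 10 peaks in gene bodies, so both sums rest on them.

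**Figure D3:**
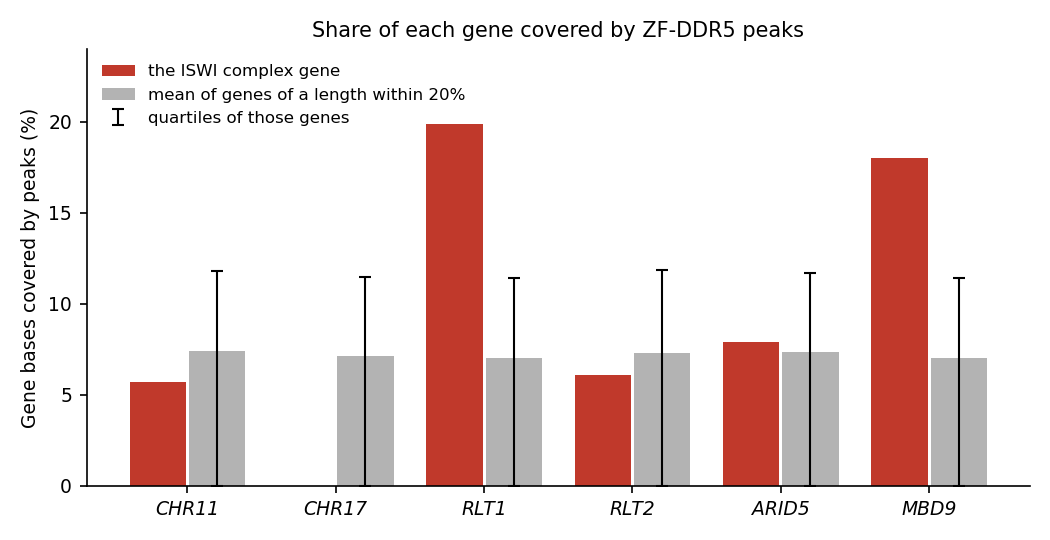
Percent of each gene's bases covered by ZF-DDR5 peaks (red bars) beside the mean over the other protein-coding genes whose length was within 20% of it (grey bars, with their quartiles as error bars, the lower at 0). RLT1 (19.9%) and MBD9 (18.0%) stand above the upper quartile of genes of their length, and the other 4 genes do not.

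Set among the 1511 other genes of 5000 to 10000 bp, the 6 genes fell at both ends of the range of peaks in the gene body. CHR17 was like the 45.6% of those genes that had 0, and CHR11, RLT2 and ARID5 were like the 37.3% that had 1. None of the 6 had 2, as 13.8% of the other genes did. RLT1 was like the 2.71% with 3, and MBD9 like the 0.529% (8 genes) with 4. The 1511 genes were not matched to either of these in length. Among genes within 20% of the length of RLT1, 5.45% had 3 or more. For MBD9, 2.27% of such genes had 4 or more. The related genes therefore differed within this list, with 1 peak in CHR11 and 0 in CHR17, and with 3 in RLT1 and 1 in RLT2. The 3 in RLT1 include 2 peaks only 38 bp apart. Joined into 1, they would place RLT1 with the 13.8% of genes that had 2. Without a replicate list, whether these differences exceed the error of peak calling could not be tested.

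Most of the 12 peaks were narrower than the list's median, and 8 were centred over 1000 bp inside a gene. The widths of the 12 had a median of 380.5 bp (290 to 864 bp), against 484 bp in the whole list (quartiles 368 and 700 bp). Of the 12, 10 were narrower than the list's median, and only the 864 bp peak of RLT1 and the 658 bp peak of MBD9 were wider. The 10 peaks centred in gene bodies had a median of 391.5 bp, against 494 bp for those in the bodies of the other genes of 5000 to 10000 bp. Of the 10 centres in gene bodies, 8 were over 1000 bp from the nearest edge, against 63.9% of the 1144 centres in the other genes of 5000 to 10000 bp. The remaining 2, in CHR11 and MBD9, were within 500 bp of an edge, against 17.7%. All 10 of these peaks lay wholly inside their gene. Of the 10 centres, 7 were in RLT1 (8260 bp) and MBD9 (9265 bp). Of all protein-coding genes, 759 were over 5000 to 6000 bp long and 165 over 8000 to 10000 bp. The edge shares were therefore not matched in length, and a fixed distance takes up less of a longer gene.

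**Figure D4:**
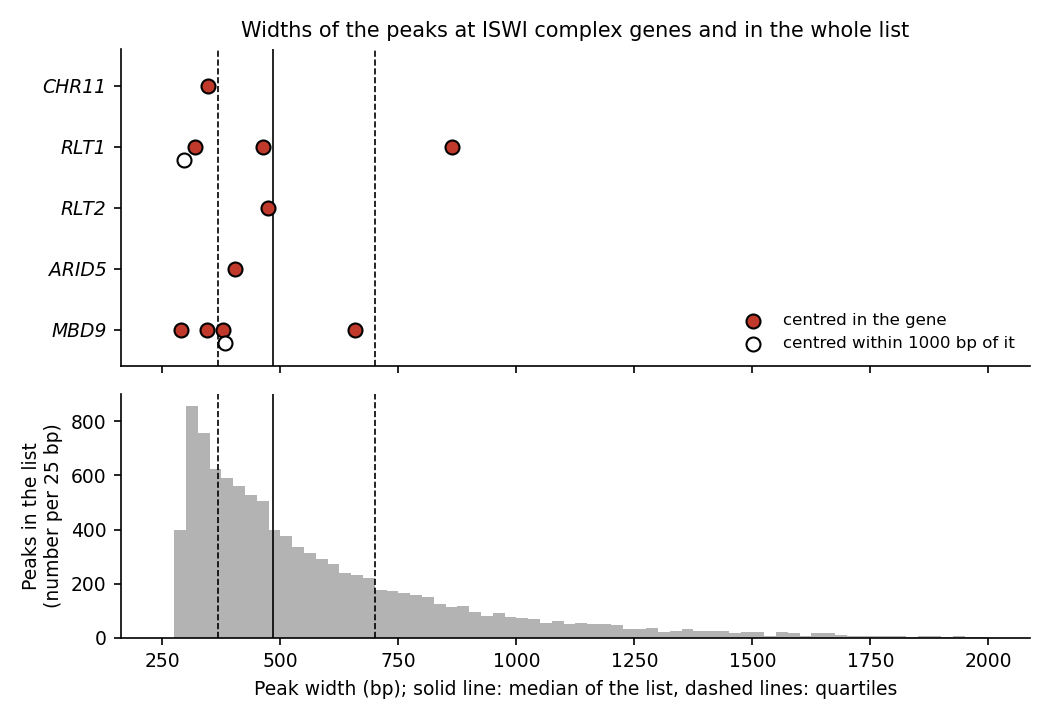
Widths in bp of the 12 peaks at ISWI complex genes, with 1 gene per row (upper panel, filled for peaks centred in the gene and open for those within 1000 bp of it), above the number of peaks per 25 bp of width in the whole list of 9999 (lower panel). The solid line is the median of the list (484 bp) and the dashed lines are its quartiles; 10 of the 12 peaks lie left of the median.

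Of the other genes of these complexes that were found in the gene table, PTM had the most peaks. Of 26 names of further ISWI partners and of SWR1 and H2A.Z genes, 12 were not found in the gene table by symbol or synonym. They include 9 of the 12 names listed for ISWI partners, DDR4 and DDR5 among these. No gene was analysed under any of the names not found. The other names gave 13 genes, of which 6 (46.2%, Wilson 95% interval 23.2% to 70.9%, for counting error only) had a peak. The share of all protein-coding genes was 36.5%. The 13 were chosen by name, run from 1072 bp (SEF) to 9153 bp (PIE1), and were not matched in length. No test was made against that share. Among the 3 ISWI partners found, PTM, a DDT-domain protein known from chloroplast-to-nucleus signalling, had 3 peaks of 304, 389 and 471 bp centred in its body. The gene is 8396 bp long, and the 471 bp peak was centred at its edge, 99.95% of the way along from the edge of lower coordinate. FHA2, a forkhead-associated protein, and MSI3, a histone-binding WD-repeat protein, had 0.

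Of the 10 genes found of SWR1, the complex with which MBD9 also acts, and of H2A.Z, 5 had a peak (Wilson 95% interval 23.7% to 76.3%). The share of all protein-coding genes was 36.5%, again not matched in length and not tested. PIE1, the SWR1 ATPase, had 1 of 475 bp, SWC2 had 1 of 441 bp and ARP4, an actin-related subunit, had 1 of 530 bp. YAF9B had 2, of 285 bp in the gene and 820 bp beside it. The peak of 334 bp counted for SEF was centred 982 bp outside the gene, in AT5G37060. ARP6, YAF9A and the H2A.Z genes HTA8, HTA9 and HTA11 had 0. By centres in the gene body alone PTM equalled RLT1 with 3 peaks, though 1 of those in PTM was centred at the gene edge. No gene found from these lists reached the 4 of MBD9.

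Genes that share a family name with the members included both genes with and genes without a peak. Of the 24 MBD and CHR genes so named by symbol and not among the 6, 14 (58.3%) had a peak, against 36.5% of all protein-coding genes. Of the other 12 MBD genes, which share the methyl-CpG-binding domain, 6 had a peak and none had more than 2, against 5 at MBD9. These genes are short, with a median of 1799.5 bp, and 30.6% of all genes of 1000 to 2000 bp had a peak. MBD4 had the widest peak among them (1007 bp), followed by MBD1 (733 bp), MBD11 (700 bp), MBD10 (358 bp), MBD6 (356 bp) and MBD13 (347 bp). The MBD1 peak was centred outside the gene and covered none of it. The other 12 CHR genes, which encode ATPases of several remodeller classes, were closer in length to CHR11 and CHR17, with a median of 5219.5 bp. Of them 8 had a peak, against 55.3% of all genes of 5000 to 6000 bp. The widest were in CHR24 (1976 bp), CHR8 (1442 bp) and CHR1 (695 bp), the DDM1 remodeller needed for DNA methylation. CHR38 (433 bp), CHR18 (421 bp) and CHR5 (417 bp) came next, each with a peak wider than the 347 bp of CHR11. No other gene carried the symbol RLT with a number, and none the symbol ARID with a number.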

How the data were processed

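The ChIP-seq peaks analysed are those listed under ZF-DDR5 replicate 1. Whether they were called from that replicate alone was not established. The deposited list gives the start and end of each peak, in bases counted from 0, and no score or count. Per the submitters' processing notes, fastp 0.20.1, Bowtie2 2.4.2, SAMtools, Picard 2.25.6, deepTools 3.5.1 and the build TAIR10 were used. No source used here names the peak caller, its threshold or its control, and each would change which peaks are listed. The labels' protocol, which names anti-FLAG precipitation, describes DDR4 fusion lines. Depth is unknown.

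Peaks were converted to positions counted from 1 and represented by their centres. Genes came from the RefSeq table of TAIR10.1, a build named differently from that of the peaks, and gene coordinates are therefore left out. Unshifted, 8493 centres lay in protein-coding genes, and at most 8311 did when moved by 200 to 5000 bp. The table gives no strand, exons or sequence. Shares of genes were computed over all protein-coding genes and over those within 20% of a member's length, with Wilson intervals at 95%. The intervals treat genes as independent, although a peak can be counted for neighbouring genes at once. Counting was tested on simulated peaks. Python 3.11.15, pandas 2.3.3 and scipy 1.17.1 were used.

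The members and lists were chosen with earlier results of these data known. Each member is named, with every peak; from the other lists, each partner with a peak and up to 6 genes of each family by peak width. Other flanks, overlap in place of centres, wider peaks only, and leaving out peaks centred in other genes or ARID5 were tried.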

Additional observations from a re-analysis of the deposited data

How the results depend on the processing

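Flanks of 0, 500 and 2000 bp gave 5, 5 and 6 of the 6 genes with a peak and 10, 12 and 14 peaks. CHR17 was the gene gained at 2000 bp. Any overlap of 1 bp with the gene, and leaving out peaks centred in another protein-coding gene, each gave 5 genes and 10 peaks. Keeping only the wider 50% of the peaks left 2 genes, MBD9 and RLT1, with 2 peaks, since 10 of the 12 peaks are narrower than the median. The share of the 6 genes covered, 10.6%, was then 3.54%, and it was 9.49% with 1000 bp added on each side and 10.9% without ARID5. The share of protein-coding genes with a peak, 36.5%, was 26.9%, 30.4% and 46.8% with flanks of 0, 500 and 2000 bp, and 20.6% with the wider 50% of the peaks. For genes as long as CHR11, CHR17, RLT1, RLT2, ARID5 and MBD9 it was 59.3%, 61.2%, 67.5%, 67.9%, 53.8% and 69.6%. Partner genes with a peak numbered 6, and 5 without a flank. Family genes with a peak numbered 14, 13 without a flank, and 21 of 40 when synonyms were matched too. Leaving out ARID5 and both changes to the family count were chosen after seeing the data. No paired analysis was possible because the result comes from 1 peak list and no test. Depth, and with it the limit on finding peaks, is unknown.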

Other observations

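Matching synonyms as well as symbols added remodeller genes of other classes to the CHR family, whose synonyms hold a CHR name. SYD and BRM, the SWI/SNF ATPases, had 2 peaks each, the widest 1197 and 1681 bp. ATRX, a remodeller gene 9937 bp long, had 3, the widest 534 bp. PKL, a CHD-class remodeller of 10300 bp, had 0 and is longer than MBD9, which had 5. The symbol HB-1 stands in the gene table for 2 loci, RLT1 and the ATHB1 gene AT3G01470 next to MBD9. A search by that symbol alone would therefore mix the peaks of RLT1 with the 382 bp peak at the edge of MBD9.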
